A study of Rattus norvegicus with 8 samples.

Results

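A set of 10 genes of water and carbon dioxide handling were followed in retinal ganglion cells (RGCs) purified from rat eyes, which send visual signals along the optic nerve. They comprise 5 carbonic anhydrase genes (Car2, Car3, Car4, Car8 and Car14) and 5 aquaporin genes (Aqp1, Aqp2, Aqp4, Aqp5 and Aqp9). A spot was assigned to a gene when the probe annotation table gave that symbol, which yielded 42 of the 45220 spots of the array. RGCs exposed to COH (chronic ocular hypertension), the long-term elevation of eye pressure that serves as a glaucoma model, were compared with RGCs from the normotensive fellow eyes of the same rats. Both groups held 4 samples, numbered 1 to 4, and each sample came from a pool of animals and was run on its own two-colour array. Samples of the same number came from the same pool and are called pair 1 to pair 4, after the design text and the titles. RGC RNA carried Cy5 and a commercial rat reference RNA carried Cy3 on all 8 arrays, so every value is a log2 ratio of RGC over reference. The strain, the age, the way pressure was raised and its duration, and the number of animals in a pool are not given in the text available.

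Carbonic anhydrases speed the interconversion of carbon dioxide and water with bicarbonate and protons. In the eye they drive the secretion of aqueous humour by the ciliary epithelium, and their inhibitors are used to lower eye pressure in glaucoma. Aquaporins are membrane channels for water, some of which also pass glycerol. In the retina Aqp4 is the main water channel of Muller glia and astrocytes, Aqp1 is known from amacrine cells and photoreceptors, and Car2 and Car14 are known mainly from glia and pigment epithelium. Neither family is a defining feature of RGCs, although Aqp9, a channel for water, glycerol and lactate best known from liver, has been described in them.

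The reliability of the measurements differed greatly between the genes. Of 336 possible values (42 spots on 8 arrays), 277 were present, and 81 of these were shared values, meaning that at least 3 spots of the same array held exactly the same number, taken here as a sign of low signal. All 8 values were present for 27 spots, and 22 of these spots never held a shared value. Aqp1 and Aqp2 had the most such evidence, with 10 complete spots each and a distinct value at every one of them on every array. Car2 and Aqp9 each had 1 spot that was distinct on all 8 arrays. Car4 held a shared value on 2 of 8 arrays and Car8 on 2, whereas Aqp5 did so on 7 arrays and Car14 and the single complete spot of Aqp4 on all 8.

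**Figure D1:**
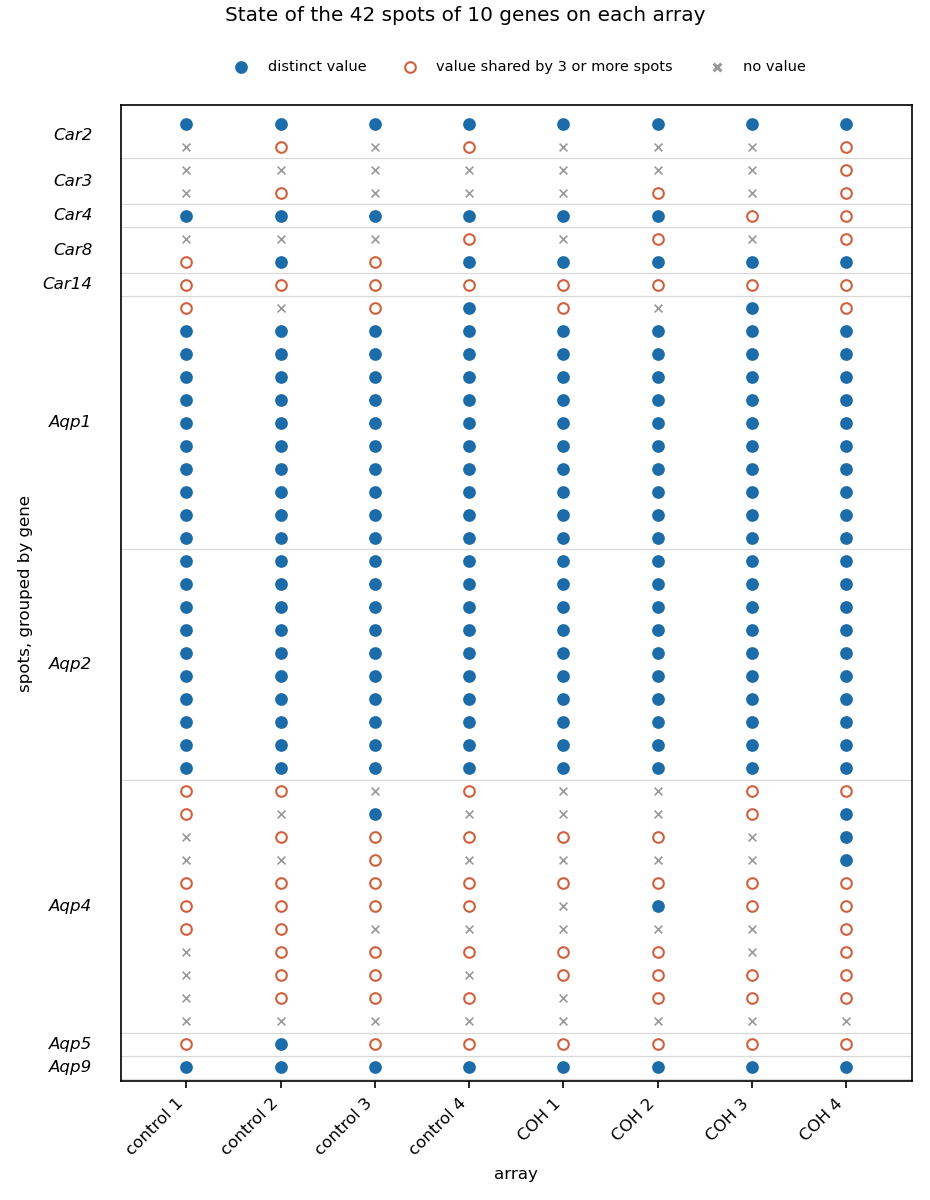
Rows are the 42 spots of the 10 genes and columns the 8 arrays; filled circles are distinct values, open circles values shared by 3 or more spots of the array, and crosses missing values. Aqp1 and Aqp2 are filled throughout apart from the top Aqp1 spot, while Aqp4 and Car3 are mostly open circles and crosses.

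Car3, the low-activity carbonic anhydrase of muscle, liver and fat, could not be compared. Its 2 spots gave 4 of 16 possible values, and all 4 were shared values. One spot read 0.58 on COH 4 alone, and the other read 0.02 on control 2, -0.15 on COH 2 and -1.07 on COH 4. The remaining 9 genes entered the test across 18595 items (9792 named genes, the rest probes without a name).

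The question of the comparison was which transcripts differ between RGCs of hypertensive and of fellow eyes. For none of the 9 genes was the difference past the threshold: the adjusted p of limma, with the pair as a block, ran from 0.915 to 0.997. Over all items the same test called 0 (0%), with a smallest adjusted p of 0.915, and the 880 items under an unadjusted p of 0.05 are the background for single genes. The design text of the study used a p under 0.05 with a change of at least 1.5-fold. By that rule 4.73% of all items and 0 of the 9 genes were selected; 477 of these items had more RNA in COH and 403 had less. With the trend over the feature number removed the split was 354 higher and 487 lower. Control and COH values overlapped for each of the 9 genes, while 2.52% of all items had groups that did not overlap. The median difference was -0.15 on the log2 scale for the 9 genes and 0.08 for all 18595 items, with 6 of the 9 genes (66.7%) and 43.8% of all items lower in COH. The median standard error was 0.42 for both. Since these are bulk samples, fewer cells of a type and less RNA per cell cannot be told apart in any of these values.

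**Figure D2:**
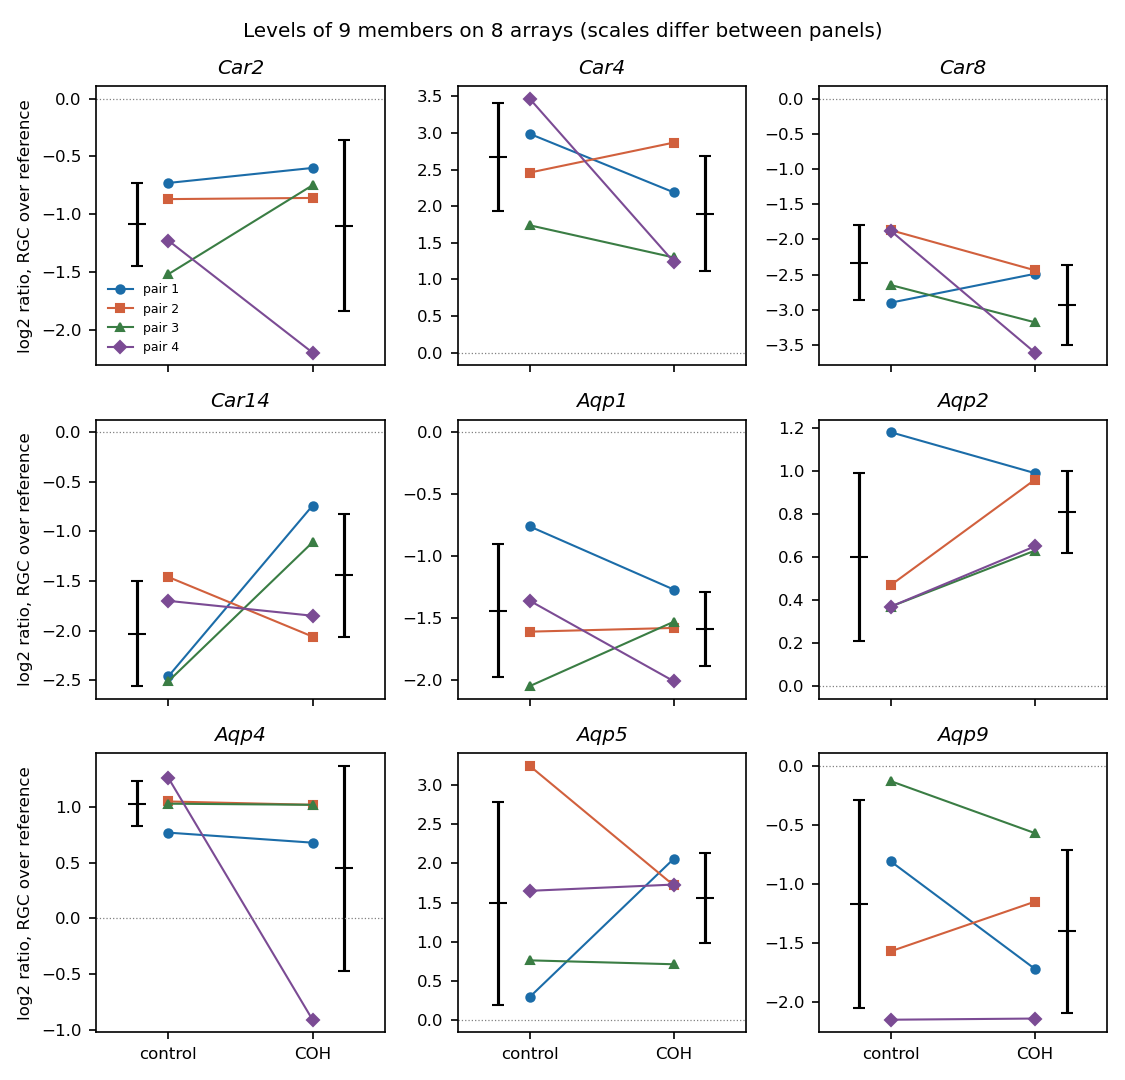
Each panel shows 1 gene, with the log2 ratio of RGC over reference in control and COH cells; lines join the 2 samples of a pair, and the black bars are the mean and SD of 4 samples. The lines of a gene run in both directions in every panel except Aqp4, where 3 of 4 lines are almost level and the line of pair 4 falls steeply.

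Of the aquaporins, Aqp1, the water channel of red cells, kidney tubule and ciliary epithelium, was below the reference in every sample at its 10 complete spots. Their mean stood at -0.76, -1.61, -2.05 and -1.36 in controls 1 to 4 and at -1.27, -1.58, -1.53 and -2.01 in COH 1 to 4. Control 1 was the highest and control 3 the lowest of all 8, so the COH samples lay inside the control range. The means were -1.44 ± 0.54 in control and -1.59 ± 0.30 in COH cells (SD, n = 4). The difference of -0.15 ± 0.36 (SE) had a 95% interval from -1.0 to 0.70 and a limma adjusted p of 0.97. This interval spans a 2.0-fold fall to a 1.63-fold rise. Without pair 4 the difference was 0.02.

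The repeated spots of Aqp1 show how far 1 array can be read. The 10 spots are annotated to the same mRNA, and whether they carry the same oligonucleotide is not stated. Their SD within an array was 0.16 to 0.29, apart from COH 4 with 0.79. In pair 1 all 10 spots were lower in COH (median -0.49) and in pair 4 all 10 were lower (-0.43), whereas in pair 3 all 10 were higher (0.52). In pair 2 the spots were split 5 to 5 around a median of 0.01. The spots thus moved together within pairs 1, 3 and 4, but in opposite directions between pairs, and spots of 1 array are not independent samples.

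Array-wide shifts had the direction of the Aqp1 shifts in pairs 1 and 3, but the opposite direction in pair 4. Whether they account for any part of the Aqp1 shifts was not tested. In pair 3 the median of all 18595 items was also higher in COH, by 0.34, against -0.10 in pair 1, 0.00 in pair 2 and 0.07 in pair 4. A trend over the feature number was present at the Aqp1 spots, with a median of 0.30 on control 1, -0.23 on control 3 and -0.22 on COH 4. After its removal the median Aqp1 differences of the pairs were -0.36, 0.02, 0.15 and -0.47, with 9 of 10 spots lower in pairs 1 and 4 and 8 of 10 higher in pair 3.

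One further Aqp1 spot, annotated to an expressed sequence tag, went against the other 10. It had a value on 6 arrays, of which 4 were shared values, and read -0.63 on control 1, 1.39 on control 3, 2.46 on control 4, 1.58 on COH 1, 4.25 on COH 3 and 1.11 on COH 4. It was above the reference on 5 of 6 arrays, while the mRNA spots were below it in all 80 of their values. It was not part of the mean given above, because it lacked a value in both samples of pair 2.

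Aqp2, the vasopressin-regulated channel of the kidney collecting duct, lay above the reference in every sample. The mean of its 10 spots was 1.18, 0.47, 0.37 and 0.37 in controls 1 to 4 and 0.99, 0.96, 0.63 and 0.65 in COH 1 to 4. Control 1 stood apart from the other controls, and without regard to pairs the COH samples fell between it and the rest. COH was higher in 3 of 4 pairs, and the difference of 0.21 ± 0.33 (SE; 95% interval -0.56 to 0.98, limma adjusted p 0.954) was within the error. Of the 80 single values, 78 were above the reference.

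Single spots carried part of the Aqp2 means. The highest spot read 3.70 on control 1, where the median of the 10 was 0.96, and 3.46 on COH 2, where the median was 0.53. The SD between spots was accordingly 0.91 and 0.98 on these arrays, against 0.14 on control 3 and 0.18 on COH 3. With the median of the spots in place of the mean, a setting chosen after seeing the data, the difference was 0.14. In pair 3, 9 of 10 spots were higher in COH (median 0.28), but after removal of the trend over the feature number the count was 5 of 10 (median -0.09).

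The start regions of Aqp1 and Aqp2 are shown because these were the best measured genes and lay on opposite sides of the reference in nearly all spots. The sequences run from 250 bases before to 50 bases after the annotated start, 5′ to 3′ on the plus strand, from RefSeq on build GRCr8, with Aqp1 at chr4:85812534-85812833 and Aqp2 at chr7:132590036-132590335. Capitals mark the letters TATAA and, in Aqp2, GACGTCA, part of the cyclic AMP response element.
Aqp1: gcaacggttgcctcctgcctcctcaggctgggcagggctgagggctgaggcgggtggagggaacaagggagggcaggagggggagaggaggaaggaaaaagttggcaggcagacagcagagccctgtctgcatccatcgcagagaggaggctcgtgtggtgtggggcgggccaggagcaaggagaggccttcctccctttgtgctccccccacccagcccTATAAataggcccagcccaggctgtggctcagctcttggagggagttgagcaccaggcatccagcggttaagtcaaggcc
Aqp2: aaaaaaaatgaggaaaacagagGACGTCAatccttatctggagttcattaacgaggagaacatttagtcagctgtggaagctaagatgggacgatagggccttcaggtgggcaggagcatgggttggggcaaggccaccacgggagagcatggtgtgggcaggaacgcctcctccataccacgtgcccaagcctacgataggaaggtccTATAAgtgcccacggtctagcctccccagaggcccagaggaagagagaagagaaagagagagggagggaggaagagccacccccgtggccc
TATAA began 30 bases before the start of Aqp1 and 41 bases before that of Aqp2, and GACGTCA 228 bases before that of Aqp2. Both motifs were searched on both strands, and they do not overlap. In the same table of 33469 start regions, 26.2% held TATAA and 3.22% held GACGTCA. The arrays did not measure promoter activity, and these matches describe the sequence only.

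**Figure D3:**
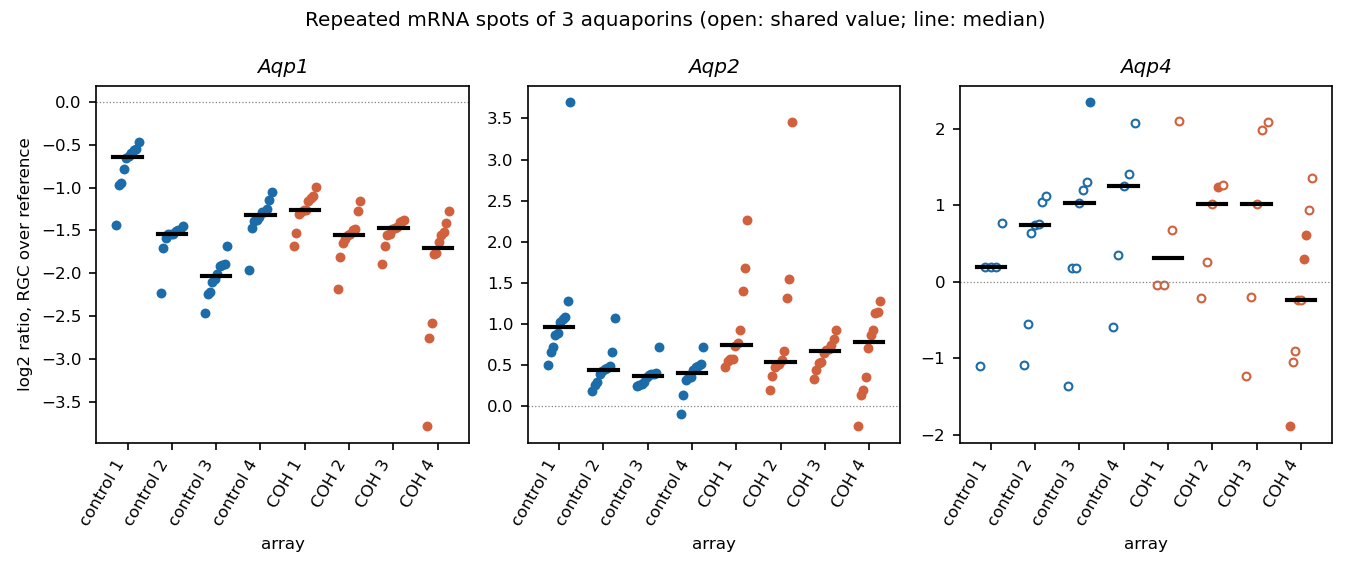
Each point is 1 spot annotated to the mRNA of Aqp1, Aqp2 or Aqp4, as log2 ratio of RGC over reference, with control arrays in blue and COH arrays in orange; open points are shared values and black lines medians. The Aqp1 points lie below 0 on every array, the Aqp2 points above 0 apart from 2 of 80, and the Aqp4 points spread over both sides.

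Aqp4, the channel concentrated at the end-feet of Muller glia, was measured by few values despite its 11 spots. Its 10 mRNA spots gave 4 to 9 values an array, 47 in all, of which 42 were shared values. Their SD within an array ran from 0.66 to 1.43, so the level on an array is uncertain by about that much for a single spot. The medians of these spots ran from -0.24 on COH 4 to 1.26 on control 4.

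Only 1 Aqp4 spot was complete. It read 0.77, 1.05, 1.03 and 1.26 in controls 1 to 4 and 0.68, 1.02, 1.02 and -0.91 in COH 1 to 4. COH was lower in 4 of 4 pairs, as in 4.66% of all items, but 3 of the 4 differences were -0.09, -0.03 and -0.01. The difference of -0.57 ± 0.47 (SE; 95% interval -1.69 to 0.54, limma adjusted p 0.926) came from pair 4, and without pair 4 it was -0.04. The trend over the feature number stood at -0.59 at this spot on COH 4, and with the trend removed the difference was -0.48. When spots complete in at least 3 pairs were added, the difference was 0.05.

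Aqp5, the channel of salivary and lacrimal glands and cornea, varied most between pairs. Its single spot read 0.29, 3.25, 0.76 and 1.65 in controls 1 to 4 and 2.06, 1.72, 0.71 and 1.73 in COH 1 to 4. The control samples spread over almost 3 log2 units, with COH inside that range. The pair differences were 1.77, -1.53, -0.05 and 0.08, and the mean of 0.07 ± 0.54 (SE) had a 95% interval from -1.22 to 1.36. It was -0.50 without pair 1 and 0.60 without pair 2. Aqp5 and Aqp2 are neighbours on chromosome 7, with no protein-coding gene starting between them.

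Aqp9 was below the reference in all 8 samples and was measured by distinct values throughout. It read -0.81, -1.57, -0.13 and -2.15 in controls 1 to 4 and -1.72, -1.15, -0.57 and -2.14 in COH 1 to 4. The samples of pair 4 were nearly equal, while controls 3 and 4 lay about 2 log2 units apart. The difference was -0.23 ± 0.36 (SE), with a 95% interval from -1.10 to 0.64 and a limma adjusted p of 0.954. It was 0.00 without pair 1 and -0.45 without pair 2.

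Of the carbonic anhydrases, Car2, the fast cytosolic enzyme of red cells, glia and ciliary epithelium, had the smallest difference of the 9 genes. Its complete spot read -0.73, -0.87, -1.52 and -1.23 in controls 1 to 4 and -0.60, -0.86, -0.75 and -2.20 in COH 1 to 4. COH 4 lay far below the other COH samples. The means were -1.09 ± 0.36 in control and -1.10 ± 0.74 in COH cells (SD, n = 4), and the difference of -0.01 ± 0.39 (SE) had a 95% interval from -0.95 to 0.92 (limma adjusted p 0.997). COH was higher in 3 of 4 pairs, by 0.13, 0.02 and 0.77, and lower by 0.97 in pair 4, so the difference without pair 4 was 0.31. On COH 4 the trend over the feature number was -0.53 at this spot, and with the trend removed the difference was 0.10. A second Car2 spot, annotated to an expressed sequence tag, gave 3 values, all shared, of 1.56 on control 2, -1.14 on control 4 and 0.50 on COH 4.

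Car4, the membrane-anchored enzyme of capillary endothelium in the choroid, was above the reference in every sample. It read 2.99, 2.46, 1.74 and 3.47 in controls 1 to 4 and 2.19, 2.87, 1.30 and 1.24 in COH 1 to 4. The groups overlapped, and the highest value was that of control 4. With means of 2.67 ± 0.74 in control and 1.90 ± 0.78 in COH cells (SD, n = 4), Car4 had the most negative difference of the 9 genes, -0.76 ± 0.48 (SE). Its 95% interval ran from -1.90 to 0.37, a 3.73-fold fall to a 1.29-fold rise, and the limma adjusted p was 0.915. Without pair 4 the difference was -0.28, and without pair 2 it was -1.15. The values on COH 3 and COH 4 were shared values. With the trend over the feature number removed the difference was -0.98, and the trend at this spot was -0.59 on control 3 and 0.11 on COH 4.

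Car14, a membrane-spanning enzyme that in mouse retina marks Muller glia and pigment epithelium, showed the most positive difference. It read -2.46, -1.46, -2.51 and -1.70 in controls 1 to 4 and -0.74, -2.06, -1.11 and -1.85 in COH 1 to 4. COH was higher in pairs 1 and 3, by 1.72 and 1.40, and lower in pairs 2 and 4. The difference was 0.60 ± 0.49 (SE; 95% interval -0.57 to 1.76, limma adjusted p 0.926). It was 0.22 without pair 1 and 0.99 without pair 2. With the trend over the feature number removed it was 0.29, and every value of Car14 was a shared value.

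Car8, a carbonic anhydrase-related protein without enzyme activity that binds the inositol trisphosphate receptor, was below the reference in every sample at its complete spot. This spot read -2.90, -1.87, -2.65 and -1.88 in controls 1 to 4 and -2.49, -2.44, -3.18 and -3.61 in COH 1 to 4. The lowest 2 values were both from COH cells, but COH 1 and COH 2 lay within the control range. COH was lower in 3 of 4 pairs, with a difference of -0.60 ± 0.42 (SE; 95% interval -1.61 to 0.41, limma adjusted p 0.915). It was -0.23 without pair 4 and -0.94 without pair 1. A second spot gave 3 values, all shared, of 0.58 on control 4, 1.32 on COH 2 and 0.24 on COH 4.

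**Figure D4:**
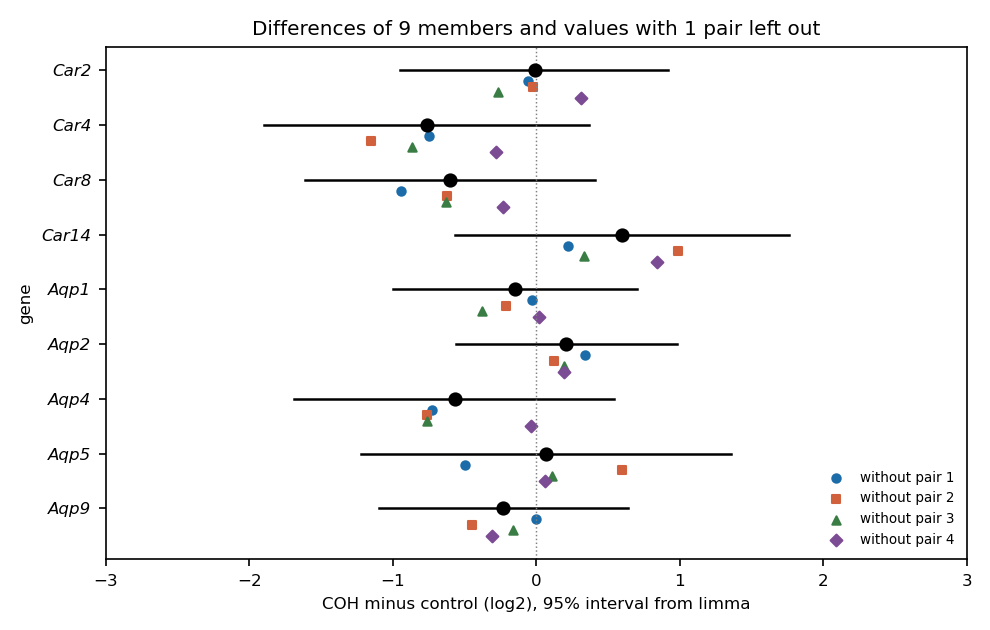
Black points are the COH minus control differences on the log2 scale with 95% intervals from limma, and coloured symbols the same difference with 1 of the 4 pairs left out. All 9 intervals include 0, and leaving out pair 4 brings Car4, Car8 and Aqp4 nearer to 0.

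Across the 9 genes the precision followed the kind of spot. The 4 genes with distinct values on all arrays (Car2, Aqp1, Aqp2 and Aqp9) had SDs of the 4 pair differences from 0.29 to 0.72, and the 5 others had SDs from 0.87 to 1.35. Over all items the median SD was 0.64 for the 8278 with a distinct spot and 1.01 for the 10317 without one. Pair 4 also stood out among the genes: their median difference was -0.65 there, against -0.09, 0.02 and -0.01 in pairs 1 to 3, although the median over all items in pair 4 was 0.07. In that pair 6 of the 9 genes were lower in COH, against 5, 4 and 5 in pairs 1 to 3. The share of all items lower in pair 4 was not computed. On COH 4 the trend over the feature number ran from -0.61 to 0.38 at the complete spots of these genes. The median over all items therefore does not describe every position on that array. The trend on COH 4 was 0.11 at the Car4 and Car8 spots, whose differences in pair 4 were -2.23 and -1.73. At the complete Aqp4 spot it was -0.59, with a difference of -2.16. What lowered these genes in pair 4 was not tested.

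Relative to the reference, the mean of the complete spots of each of the 9 genes stayed on 1 side in all 4 control samples. Incomplete spots did not always keep to that side. Single values were -1.11 for Aqp4 on control 1 and 1.56 for Car2 on control 2. On control 4 they were 2.46 for Aqp1 and 0.58 for Car8. Car4, Aqp2, Aqp4 and Aqp5 were above it on all 4 control arrays, as were 24.8% of all items. Car2, Car8, Car14, Aqp1 and Aqp9 were below it, as were 42.5% of all items. Such ratios also depend on the composition of the reference RNA, and dye bias cannot be separated from them because no array had swapped dyes. They are therefore given without a test and do not show that RGCs express a gene. No gene was higher in COH in 4 of 4 pairs, which 8.38% of all items were.

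Other members of both families were looked at in the same fit. Of 7 other measured carbonic anhydrases, out of 11 listed, 0 met the p and fold rule, and their median difference was -0.21. Those of smallest p were Car5a, the mitochondrial enzyme of liver, at -0.69 ± 0.66, and Car15, a membrane-anchored enzyme, at 0.63 ± 0.48 (SE). Car5a was at -0.04 without pair 4 and -1.38 without pair 2, and Car15 at 0.28 without pair 3 and 1.12 without pair 1. Of 4 other measured aquaporins, out of 7 listed, 0 met the rule, with a median difference of -0.60. Aqp11, an aquaporin of intracellular membranes, read 1.15, 1.21, 0.59 and 0.61 in controls 1 to 4 and 0.63, 0.80, 0.06 and -1.54 in COH 1 to 4. Aqp11 was lower in 4 of 4 pairs, as in 4.66% of all items, and the difference of -0.90 ± 0.42 (SE; 95% interval -1.89 to 0.08, limma adjusted p 0.915) was -0.49 without pair 4. Aqp3, a channel for water and glycerol, differed by -0.67 ± 0.45 (SE), with its lowest values, -0.98 and -0.61, on COH 4 and COH 1, and by -0.32 without pair 4.

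Genes that work beside these channels and enzymes are described by count and by the genes of smallest p. Of 12 measured bicarbonate and proton transporters, 1 met the p and fold rule: the sodium-proton exchanger Slc9a5, at 1.51 ± 0.55 (SE; limma adjusted p 0.915), where control 3 read -4.38 and the other controls -1.45 to -0.51. Of 9 measured genes of sodium, potassium and chloride transport, 1 met it. This was Slc12a5, the neuronal potassium-chloride cotransporter, which read 1.88, 2.15, 0.51 and 2.41 in controls 1 to 4 and 2.86, 2.90, 2.25 and 3.42 in COH 1 to 4. It was higher in 4 of 4 pairs, as in 8.38% of all items, by 1.12 ± 0.34 (SE; 95% interval 0.31 to 1.93). The limma adjusted p of Slc12a5 was 0.915 over all items, and its values were distinct on every array. Slc9a5 and Slc12a5 were chosen by the rule, which 4.73% of all items met, so an interval without 0 follows from that choice. Of 10 measured partners and regulators of aquaporins, including dystrophin (Dmd) and dystroglycan (Dag1) of the complex that holds Aqp4 at glial end-feet, 0 met the rule, with a median difference of 0.14. Agrn and Prkaca had the smallest p there, at 0.37 ± 0.40 and 0.68 ± 0.56 (SE). Agrn was at 0.75 without pair 1 and Prkaca at 0.12 without pair 3.

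Markers of the cells that could supply these transcripts were read on the same arrays. Muller glia markers had a median control level of -0.53 over 10 genes, of which 6 were below and 1 above in all controls, and a median difference of 0.27, with 0 meeting the rule. Of these 10 genes, 3 were higher and 0 lower in COH in 4 of 4 pairs, against 8.38% and 4.66% of all items. Astrocyte markers had a median level of -0.58 over 7 genes, and 2 of these, Aldh1l1 and Slc1a2, were lower by the rule, while the list's median difference was 0.15. Slc1a2 held a shared value on 7 of 8 arrays and was lower in 3 of 4 pairs. Its difference was -1.24, and -0.85 without pair 4. Aldh1l1 held no shared value and was lower in 4 of 4 pairs. The 13 measured RGC markers had a median level of 0.07. In all controls 3 lay above the reference and 3 below it, and the median difference of the 13 was 0.06, with 1 gene (Thy1) lower by the rule. Thy1 held a shared value on 3 of 8 arrays and was lower in 3 of 4 pairs. Its control values ran from -1.09 on control 2 to 2.58 on control 1. The median differences were 0.34 for 5 measured markers of pigment and ciliary epithelium, 0.16 for 6 of vessels, 0.22 for 3 of erythrocytes and -0.01 for 6 genes of kidney and liver, with 0 meeting the rule. The median control levels of these lists were -0.31, 0.50, 1.97 and 0.62, in the same order. Of 10 muscle and fat markers 1 was higher by the rule (Ckm, a shared value on all 8 arrays), with a median difference of -0.06 over the list. Of 7 amacrine and photoreceptor markers 1 (Pax6) was lower, with a median difference of 0.08. The median control level was -0.32 for the muscle and fat markers and 0.05 for the amacrine and photoreceptor markers. The rule was met by 4.73% of all items. None of these genes passed the adjusted threshold, and the part of other cells in the levels of carbonic anhydrases and aquaporins was not tested.

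Aqp2, which with Aqp9 was without any shared value and comes first in the list of genes, was compared with 4984 named genes over the 8 arrays. The most similar profiles were those of Rilpl2 (Pearson r 0.952), Lpin3 (0.950) and Or4f7c (0.948). Rilpl2 read -0.21 on control 1 and -1.23 to -0.96 on the other controls, and Lpin3 read 0.23 on control 1 and -1.31 to -0.93 on the others. Control 1 was thus the highest control for both, as it was for Aqp2. These correlations describe 8 arrays, in which position and array-wide shifts are common to all spots. They are the highest of 4984, and such a choice over 8 values can give high r without any relation between genes. No test was made of them. The Aqp2 profile also includes the single spots at 3.70 on control 1 and 3.46 on COH 2.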

How the data were processed

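Per the design text, the authors deposited log2 ratios for each spot after global and local Lowess normalisation, leaving out spots that failed the quality criteria of Agilent. Their software is not stated. The log2 base was inferred: on 7 of 8 arrays frequent identical values most often lay 2 apart. The direction (RGC, Cy5, over reference, Cy3) follows the labelled dyes and the design text. Array medians were -0.065 to 0.125, and 50.9% to 59.5% of the 32101 to 42076 values of an array were shared by at least 3 spots. Intensities were not used here.

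Of the 45220 spots, 25353 had 1 gene symbol, 48 several and 19819 none. The 22856 spots with all 8 values were averaged per gene, and limma 3.58.1 (R 4.3.3) was fitted with lmFit and eBayes, two-sided, with the pair as a block. P-values were adjusted by Benjamini-Hochberg over 18595 items, with 0.05 as threshold. The fit was tested on simulated data. The number of arrays limits precision. P-values reflect the spread of the COH minus control differences between pairs, moderated over items by eBayes. Each sample had its own array, so differences between pools and between arrays cannot be told apart in that spread. The pairing comes from the design text and titles. Deviations of same-numbered arrays correlated at 0.02 to 0.09, and those of differently numbered arrays at -0.19 to 0.09. These values do not single out the pairs. The rule of the design text was applied to limma's p, since the form of its analysis of variance is not given. The trend over the feature number was a lowess curve (span 0.05) of each array's deviation from the median array.

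The members and gene lists were chosen with earlier results of these data known. All members are named. Of each list, genes with an unadjusted p under 0.05 and at least 1.5-fold are named, or otherwise those 2 of smallest p, which for marker lists are left out. Alternatives covered the block, scaling, incomplete spots, single spots, distinct values, the trend, array weights, the prior and each pair left out. The median over spots and the fit without COH 4 were chosen after seeing the data.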

Additional observations from a re-analysis of the deposited data

Results flagged for a closer look

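Samples far from the other 3 of their group were looked for in 18 groups of 4 (9 genes in control and COH cells), and 2 were found, where chance marks about 1 in 20 groups. Car2 on COH 4 read -2.20, against -0.86 to -0.60 on the other COH arrays. Aqp2 on control 1 read 1.18, against 0.37 to 0.47 on the other control arrays, and 1 of its 10 spots there read 3.70.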

How the results depend on the processing

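No member passed the adjusted threshold under any of the alternatives run (smallest limma adjusted p 0.778), and 0 of all items did in 16 of 16 settings. The items meeting the p and fold rule of the design text numbered 880 (477 higher, 403 lower), 431 with distinct values only (358 and 73, of 8278 items instead of 18595) and 541 without the block and COH 4 (324 and 217). The balance turned with the trend over the feature number removed (354 higher, 487 lower), with incomplete spots included (545 and 640) and without pair 3 (323 and 467). Of 157 differences of single genes or spots, 142 kept their direction and 15 turned. The causes were not tested. Some of the 142 could not turn. Dropping the block or changing the prior leaves every difference as it is in this balanced design. A gene with 1 complete spot also keeps its value when single spots or the median over spots are used. Car2 (-0.01) turned to 0.05 with arrays centred on their medians, 0.10 with the trend over the feature number removed, 0.02 with array weights and 0.35 without the block and COH 4, and ran from -0.27 to 0.31 with 1 pair left out. Aqp1 ran from -0.38 to 0.02 with 1 pair left out, and 1 of its spots alone gave 0.14. Single spots of Aqp2 gave -0.03, -0.06, -0.08 and -0.30. Aqp4 turned to 0.05 with incomplete spots included, Aqp5 to -0.15 with the trend removed (-0.50 to 0.60 with 1 pair left out) and Aqp9 to 0.02 without the block and COH 4. Without the replicate block the difference of Car4 was -0.76 and no item passed the adjusted threshold. The items meeting the p and fold rule then numbered 697 (361 higher, 336 lower). Control levels stayed within 1 SD in 76 of 76 recomputed values, but many of these could not do otherwise. The setting with incomplete spots included was not among them. The Aqp4 level there rests on more spots, 1 of which read -1.11 on control 1, against 0.77 at the complete spot. Leaving out 1 pair cannot move a control mean by over 1 SD. With distinct values only, the levels were those of the main setting. Shared values, the stand-in for weak signal, limit Aqp4, Aqp5, Car14 and Car3; signal over background was not used here.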
